A study of Mus musculus with 12 samples.

Results

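The genes described here are Nfe2l2, which encodes the transcription factor Nrf2, its repressor Keap1 and the antioxidant genes Nqo1, Hmox1, Txnrd1, Srxn1, Gsr, Me1, G6pdx and Taldo1. These 10 genes were chosen by symbol, matched to their Ensembl identifiers in the mouse annotation of GRCm38, and followed through all 12 RNA-seq libraries of a count table of 55536 genes. The libraries came from splenic B cells of 3 control mice, which carried 1 Cre allele active in B cells, and 3 Pdap1-deficient mice, which carried the same Cre allele with Pdap1F/F, and were kept for 48 h either in LPS with IL-4, which directs switching to IgG1, or in LPS with BAFF and TGFβ, which directs switching to IgG2b. The 4 groups of 3 libraries were therefore control and Pdap1-deficient cells under each stimulation. Libraries with the same number were taken to come from the same mouse. In the Pdap1F allele LoxP sites flank exon 2, and Cre was expressed in B cells, so other cells in a culture were not targeted. The mice were on a C57BL/6 background, of both sexes and 7 to 27 weeks old in the study at large, and B cells had been enriched with anti-CD43 beads before culture.

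Nrf2 is held in the cytoplasm and handed to the proteasome by Keap1, an adaptor of the Cul3 ubiquitin ligase whose cysteines react with electrophiles and oxidants. When Keap1 is modified, Nrf2 escapes, enters the nucleus, pairs with a small Maf protein and binds antioxidant response elements, whereas Bach1 competes for the same elements and represses them until heme removes it. The targets fall into enzymes that reduce quinones, that keep thiols reduced, that degrade heme and that supply NADPH. Because the control of Nrf2 is largely on the protein, its own transcript is not a measure of its activity.

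Promoter letters were read to show which members hold the core of the antioxidant response element near a RefSeq start site (GRCm38.p6, from 250 bases before to 50 after the start). The motif searched was TGACNNNGC on both strands. RefSeq promoters were at hand for 8 of the 10 members, 11 promoters in all; Gsr and Hmox1 had none. Matches were in 5 of the 11 promoters, those of Nfe2l2, Srxn1, Txnrd1, Me1 and G6pdx, against 12.4% of all 32851 promoters of that length. Txnrd1 had 3 promoters and Me1 had 2, and in each of these genes only 1 promoter held a match. No match to these letters was in the windows of Nqo1, Keap1 or Taldo1. In the lines that follow capitals mark the match, and each line runs 5′ to 3′ on the strand of the gene.

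Me1, chr9:86695912-86695945, minus strand, match from 6 bases before the start: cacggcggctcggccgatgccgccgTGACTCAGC

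Txnrd1, chr10:82859089-82859147, plus strand, match on the opposite strand from 92 bases before the start: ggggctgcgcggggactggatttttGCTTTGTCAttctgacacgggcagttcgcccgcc

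G6pdx, chrX:74428904-74428962, minus strand, match on the opposite strand from 57 bases before the start: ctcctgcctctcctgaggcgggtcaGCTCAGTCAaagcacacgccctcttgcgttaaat

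Nfe2l2, chr2:75704870-75704913, minus strand, match from 240 bases before the start: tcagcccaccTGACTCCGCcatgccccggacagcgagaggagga

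The Srxn1 match lay after the start and is not printed. Srxn1 also held 2 copies of TGACTCA, the element of AP-1 factors, 102 and 45 bases before its start, read on the opposite strand. The Me1 match contains the same TGACTCA, and 5.2% of all promoters held it.

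Srxn1, chr2:152105397-152105453, plus strand: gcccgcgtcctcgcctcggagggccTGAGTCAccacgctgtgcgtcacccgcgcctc

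Srxn1, chr2:152105454-152105510, plus strand: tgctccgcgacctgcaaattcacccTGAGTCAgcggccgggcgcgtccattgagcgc

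The members with a match did not behave alike in the counts. Me1 rose with Pdap1 deficiency under LPS-IL-4 but did not pass the test under LPS-BAFF-TGFβ. Nfe2l2, Srxn1, Txnrd1 and G6pdx passed under neither stimulation. Nqo1 rose under both although its window held no match. These letters are a description of the windows and show no binding.

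Expression is given as CPM, the reads of a gene scaled to a common library total so that levels can be set side by side across the 12 libraries. Totals ran from 4579793 to 15869143 counts in 11 libraries, and the control mouse 1 library with LPS-BAFF-TGFβ stood apart with 69500640. Pdap1 itself had 93.0, 91.4 and 97.8 CPM in controls and 23.3, 27.2 and 29.9 in Pdap1-deficient mice with LPS-IL-4. With LPS-BAFF-TGFβ it had 199, 80.3 and 100.3 CPM in controls, the highest again in the deep library, and 26.4, 26.0 and 23.0 in Pdap1-deficient mice. All 6 Pdap1-deficient libraries were below all 6 controls, with a log2 difference of −1.82 ± 0.11 (SE, adjusted p = 3.52e-05) with LPS-IL-4 and −2.33 ± 0.36 (adjusted p = 0.0929) with LPS-BAFF-TGFβ. These p-values and those that follow come from edgeR's quasi-likelihood F test with Benjamini-Hochberg adjustment over all genes tested, and a member is said to rise or fall where the adjusted p is under 0.05. All 6 B cell markers examined were detected in every library, with summed CPM of 2108 to 3293.

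The Pdap1-deficient cultures of mouse 2 carried a myeloid signal. The summed CPM of 12 myeloid markers was 57.7 to 95.1 in controls with LPS-IL-4 and 65.7, 654 and 191 in Pdap1-deficient mice 1, 2 and 3. With LPS-BAFF-TGFβ it was 98.2 to 132 in controls and 107, 770 and 219 in Pdap1-deficient mice 1, 2 and 3. In mouse 2 with LPS-IL-4 all 11 of the 11 detected markers were higher than in the other 5 libraries of that stimulation, and 9 of 11 were with LPS-BAFF-TGFβ. Lyz2, a lysozyme of macrophages and neutrophils, reached 94.0 and 278 CPM there, and Csf1r, the receptor of macrophage colony-stimulating factor, 27.5 and 43.8. The complement genes C1qa, C1qb and C1qc, which mark resident macrophages, were at or near 0 in every library, at most 0.609 CPM. C1qb and C1qc counted among the 11 markers highest in mouse 2 with LPS-IL-4 on 1 read each. The summed neutrophil markers were 86.9 and 117 CPM in mouse 2 and at most 2.81 in the other 10 libraries. Summed T cell markers were also highest in Pdap1-deficient mouse 2 under each stimulation. With LPS-IL-4 the sum was 19.1 CPM in mouse 2 and at most 7.53 in the other libraries, and 6 of 6 markers were highest there. Under LPS-BAFF-TGFβ it was 8.47 CPM in mouse 2 and at most 4.38 in the others, with 5 of 6 markers highest there. The part of the T cell markers in the results was not tested. Summed NK cell markers were at most 3.28 CPM. Summed erythroid markers were 8.45 to 11.4 CPM in controls with LPS-IL-4 and 10.1, 20.7 and 24.1 in Pdap1-deficient mice 1, 2 and 3, and with LPS-BAFF-TGFβ they were 9.47 to 10.8 and 11.1, 20.4 and 19.3, so that mice 2 and 3 stood above the controls under both. Summed red pulp macrophage markers were 0.18 to 0.964 CPM in controls and 1.01, 7.24 and 2.43 in Pdap1-deficient mice with LPS-IL-4, but 13.4 to 16.9 in controls and 10.3 to 12.4 in Pdap1-deficient mice with LPS-BAFF-TGFβ. Under the latter most of the sum was Vcam1 alone, with means of 14.3 CPM in controls and 9.18 in Pdap1-deficient mice. Spic went the other way there, from 0.891 to 2.32 CPM, and Cd163, Siglec1 and Timd4 were at most 0.413. The part of these markers in the results was not tested. Summed plasma cell markers were 335 to 376 CPM in controls and 387 to 492 in Pdap1-deficient mice with LPS-IL-4. With LPS-BAFF-TGFβ the ranges of 106 to 134 and 119 to 153 overlapped. Most of the sum was Xbp1, with means of 313 and 342 CPM by genotype with LPS-IL-4. There Prdm1 went from 17.4 to 62.3 CPM, Sdc1 went the other way from 8.44 to 5.02, Jchain overlapped and Tnfrsf17 was near 0. The part of the plasma cell markers in the results was not tested. Mouse 3 was intermediate for myeloid markers, and mouse 1 lay within the range of the controls under both stimulations. In bulk libraries, fewer cells of a type and less RNA per cell cannot be told apart.

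**Figure D1:**
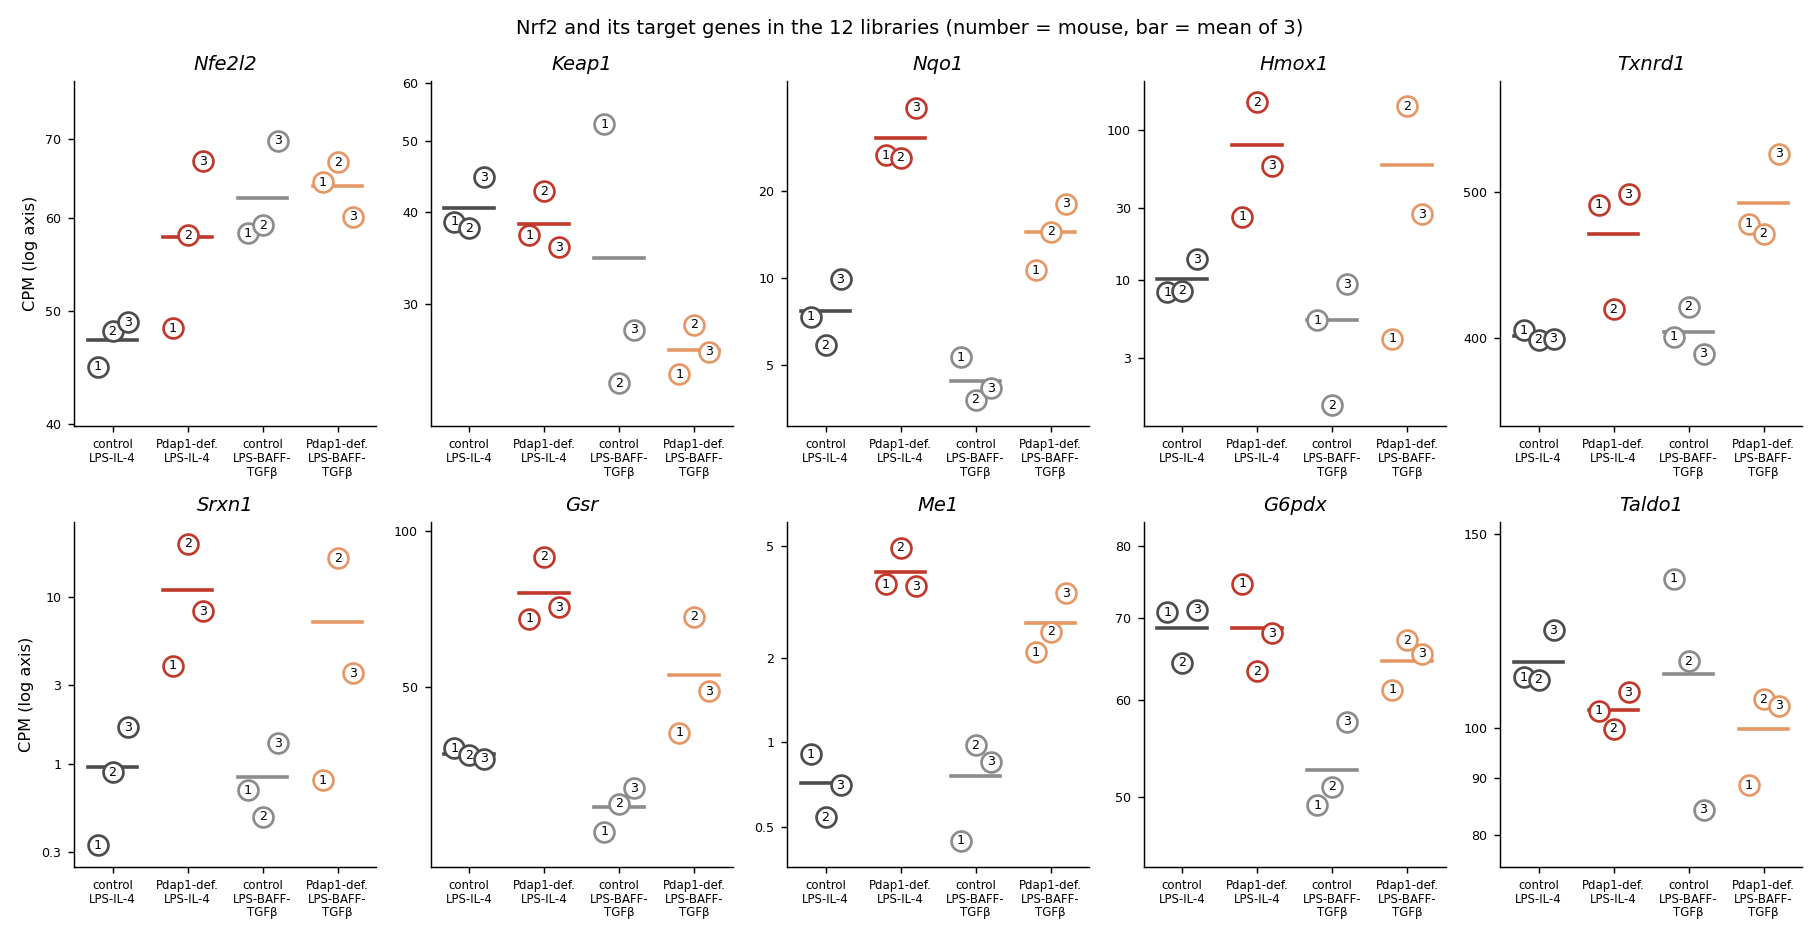
Level of the 10 genes in CPM (log axes, which differ between panels) in each of the 12 libraries, in 4 groups of 3, with the mouse number in each point and a bar at the mean of the group. Nqo1, Gsr and Me1 of all 3 Pdap1-deficient mice lie above all controls under both stimulations, while Hmox1 and Srxn1 of Pdap1-deficient mouse 2 lie far above mice 1 and 3.

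The comparison of genotypes asked which members changed when B cells lacked Pdap1. With LPS-IL-4, Nqo1, Gsr and Me1 rose in Pdap1-deficient cells and no member fell, at an adjusted p under 0.05. That is 3 of 10 members, beside 2.79% of 15074 tested genes that rose and 4.92% that changed in either direction. In 6 of the 10 members, namely Nqo1, Hmox1, Txnrd1, Srxn1, Gsr and Me1, every Pdap1-deficient library was above every control, as it was in 15.5% of all genes. Taldo1 was the single member below every control, as 16.1% of all genes were. The median log2 fold change was 0.65 over the members and 0.02 over all genes. With LPS-BAFF-TGFβ only Nqo1 rose, beside 0.455% of 14079 genes that rose and 0.462% that changed in either direction. There Nqo1, Txnrd1, Gsr, Me1 and G6pdx were above every control, 5 of 10 members against 9.55% of all genes, and the median log2 fold change was 0.58 over the members and 0.01 over all genes. DESeq2 called 5 of 10 members with LPS-IL-4, adding Hmox1 and Srxn1, and 8.9% of genes. With LPS-BAFF-TGFβ it called Nqo1 and Gsr, 2 of 10 members, and 0.983% of genes.

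**Figure D2:**
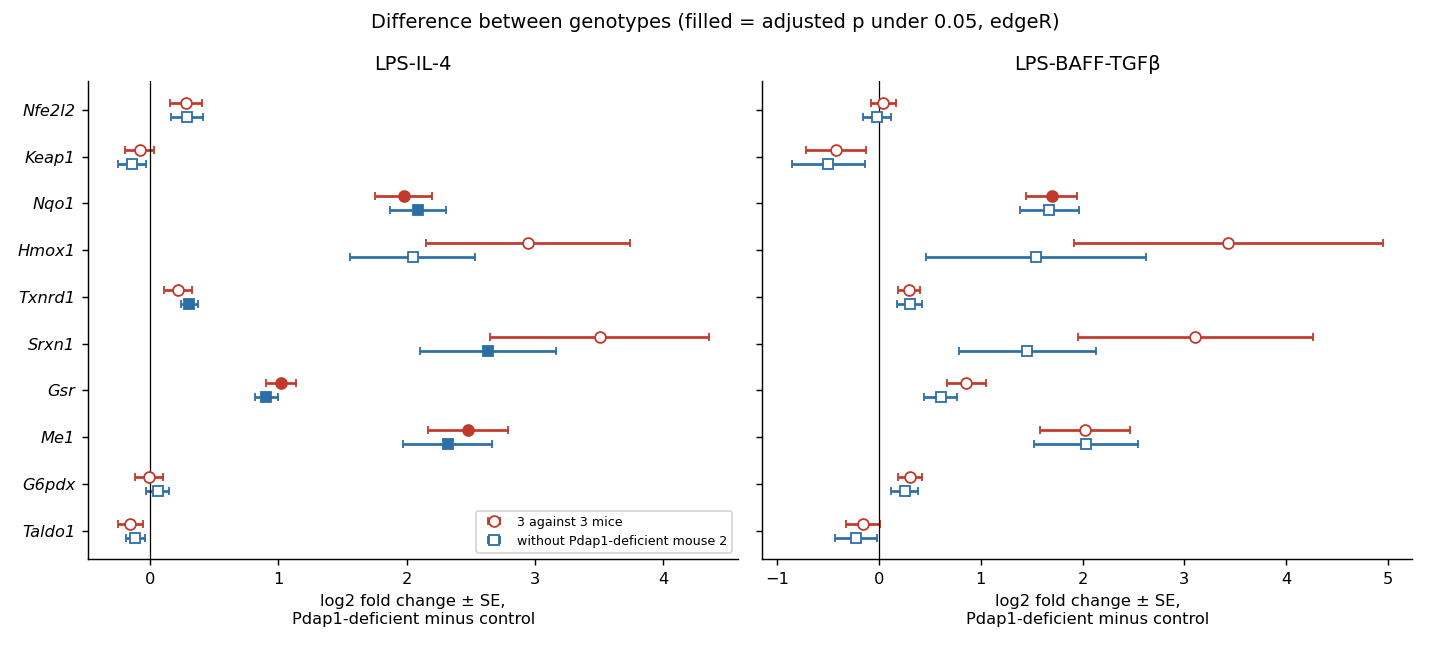
Log2 fold change of each gene between genotypes, Pdap1-deficient minus control, with its SE, under LPS-IL-4 (left) and LPS-BAFF-TGFβ (right), for all 3 mice against 3 and without Pdap1-deficient mouse 2; filled points passed an adjusted p of 0.05. Nqo1, Gsr and Me1 are filled with LPS-IL-4 with or without mouse 2, and the values of Hmox1 and Srxn1 move most when mouse 2 is left out.

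Nfe2l2 lies on chromosome 2 (75675513 to 75704641, minus strand). Control mice 1, 2 and 3 had 44.8, 48.0 and 48.9 CPM with LPS-IL-4, and Pdap1-deficient mice 1, 2 and 3 had 48.3, 58.0 and 67.0. The groups overlapped through mouse 1. With LPS-BAFF-TGFβ the controls had 58.2, 59.1 and 69.8 CPM and the Pdap1-deficient mice 64.4, 66.9 and 60.1, inside the range of the controls. Between genotypes the log2 fold change of 0.28 ± 0.13 (SE) with LPS-IL-4 (adjusted p = 0.21) and that of 0.04 ± 0.12 with LPS-BAFF-TGFβ (adjusted p = 0.917) did not pass.

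Keap1 (chromosome 9, 21229730 to 21239361, minus strand) was likewise not separated by genotype. Its levels with LPS-IL-4 were 38.8, 38.0 and 44.7 CPM in controls and 37.2, 42.7 and 35.8 in Pdap1-deficient mice, a log2 difference of −0.08 ± 0.11. With LPS-BAFF-TGFβ it had 52.7, 23.4 and 27.6 CPM in controls and 24.0, 28.1 and 25.8 in Pdap1-deficient mice. The high control value was the deep library, and without it the log2 difference of −0.42 ± 0.29 became 0.02. The exons of Keap1 overlap those of Gm16754 on the opposite strand, which had at most 149 counts in a library.

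Nqo1 (chromosome 8, 107388225 to 107403206, minus strand), the NAD(P)H quinone reductase and a standard readout of Nrf2, was the member that passed the test under both stimulations. With LPS-IL-4 it had 7.33, 5.85 and 9.90 CPM in controls and 26.7, 26.1 and 39.0 in Pdap1-deficient mice. With LPS-BAFF-TGFβ it had 5.29, 3.77 and 4.14 CPM in controls and 10.6, 14.5 and 18.1 in Pdap1-deficient mice. No Pdap1-deficient library overlapped the controls of its stimulation, and mouse 3, not mouse 2, was highest under both. The group means were 7.69 ± 2.05 and 30.6 ± 7.28 CPM (SD, n = 3) with LPS-IL-4, and 4.40 ± 0.793 and 14.4 ± 3.70 with LPS-BAFF-TGFβ. It rose 3.94-fold with LPS-IL-4, a log2 fold change of 1.98 ± 0.22 (SE, adjusted p = 0.00147), and 3.24-fold with LPS-BAFF-TGFβ, a log2 fold change of 1.69 ± 0.25 (adjusted p = 0.0205). The first call held in all 13 alternative fits (other filters, scalings or tools, and each library left out), with adjusted p up to 0.0214. The second was lost in 6 of 13, while its log2 fold change stayed between 1.49 and 1.87. The adjusted p was 0.074 without the library of control mouse 2 and 0.151 without that of control mouse 3. It was 0.122 without mouse 2 and 0.156 without mouse 3 of the Pdap1-deficient group.

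The thiol enzymes differed among themselves. Gsr (chromosome 8, 33652523 to 33698163, plus strand), which reduces oxidized glutathione with NADPH, had 38.1, 37.0 and 36.4 CPM in controls with LPS-IL-4 and 67.7, 89.1 and 71.3 in Pdap1-deficient mice. With LPS-BAFF-TGFβ the values were 26.3, 29.8 and 31.9 CPM in controls and 40.8, 68.3 and 49.1 in Pdap1-deficient mice, again with mouse 2 highest and all above the controls. Its rise with LPS-IL-4 was 2.03-fold, a log2 fold change of 1.02 ± 0.12 (adjusted p = 0.00147), and it passed in all 13 alternatives. With LPS-BAFF-TGFβ the log2 fold change was 0.86 ± 0.19, and the adjusted p of 0.149 missed the threshold; DESeq2 gave 0.015.

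Txnrd1 (chromosome 10, 82833951 to 82897712, plus strand), the cytosolic thioredoxin reductase, was abundant in every library. With LPS-IL-4 the controls had 405, 399 and 399 CPM and the Pdap1-deficient mice 490, 418 and 498, and with LPS-BAFF-TGFβ the controls had 401, 420 and 390 and the Pdap1-deficient mice 476, 469 and 530. The groups did not overlap under either stimulation, but the differences were small. Neither the log2 fold change of 0.22 ± 0.11 with LPS-IL-4 (adjusted p = 0.263) nor that of 0.29 ± 0.11 with LPS-BAFF-TGFβ (adjusted p = 0.413) passed. The least raised library was mouse 2 with LPS-IL-4, at 1.04 times the control mean against 1.22 and 1.24 in mice 1 and 3.

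Srxn1 (chromosome 2, 152105516 to 152111376, plus strand) encodes sulfiredoxin, which returns overoxidized peroxiredoxins to use. It was scarce in controls, with 4, 10 and 19 reads with LPS-IL-4, which were 0.329, 0.899 and 1.66 CPM, and the Pdap1-deficient mice had 3.89, 20.9 and 8.25 CPM. With LPS-BAFF-TGFβ the controls had 0.699, 0.487 and 1.34 CPM and the Pdap1-deficient mice 0.806, 17.1 and 3.52. Mouse 2 was highest and mouse 1 lowest of the Pdap1-deficient mice under both stimulations, and with LPS-BAFF-TGFβ mouse 1 was inside the control range. The log2 fold changes of 3.51 ± 0.85 with LPS-IL-4 (adjusted p = 0.0848) and 3.11 ± 1.15 with LPS-BAFF-TGFβ (adjusted p = 0.454) did not pass.

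Hmox1 (chromosome 8, 75093621 to 75100589, plus strand), the inducible heme oxygenase, had the same order of mice as Srxn1. With LPS-IL-4 the controls had 8.24, 8.45 and 13.7 CPM and the Pdap1-deficient mice 26.3, 153 and 57.8. With LPS-BAFF-TGFβ the controls had 5.37, 1.46 and 9.38 CPM and the Pdap1-deficient mice 4.03, 144 and 27.3. All 3 Pdap1-deficient mice were above the controls with LPS-IL-4, and mouse 1 was among the controls with LPS-BAFF-TGFβ. The group means of 79.0 ± 65.9 and 58.4 ± 74.9 CPM (SD, n = 3) in Pdap1-deficient cells show the spread. Its log2 fold changes of 2.95 ± 0.79 with LPS-IL-4 (adjusted p = 0.125) and 3.43 ± 1.52 with LPS-BAFF-TGFβ (adjusted p = 0.523) did not pass. The LPS-IL-4 library of Pdap1-deficient mouse 1 was the lowest of the 3. Without it, both Hmox1 (3.35, adjusted p = 0.0325) and Srxn1 (3.90, adjusted p = 0.0117) passed. That fit called 1759 of 15482 genes, against 741 of 15074 in the main fit. It kept mice 2 and 3, with summed myeloid markers of 654 and 191 CPM, and left out mouse 1 at 65.7. The part of the myeloid signal in these calls was not tested.

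Among the NADPH suppliers, Me1 (chromosome 9, 86581371 to 86695953, minus strand), the cytosolic malic enzyme, rose with LPS-IL-4. It was scarce, with 6 to 11 reads and 0.906, 0.540 and 0.701 CPM in controls, and 34 to 81 reads and 3.66, 4.93 and 3.60 CPM in Pdap1-deficient mice. The log2 fold change was 2.48 ± 0.31 (adjusted p = 0.00275), a 5.57-fold rise, and it passed in all 12 alternatives that could test it. With LPS-BAFF-TGFβ the controls had 0.445, 0.973 and 0.852 CPM and the Pdap1-deficient mice 2.10, 2.48 and 3.40, again apart, and the log2 fold change of 2.02 ± 0.44 did not pass (adjusted p = 0.138).

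The pentose phosphate enzymes did not follow Me1. G6pdx (chromosome X, 74409483 to 74429194, minus strand), the first enzyme of that pathway, had 70.7, 64.3 and 71.1 CPM in controls with LPS-IL-4 and 74.6, 63.3 and 68.0 in Pdap1-deficient mice, a log2 difference of −0.01 ± 0.11. With LPS-BAFF-TGFβ it had 49.2, 51.0 and 57.6 CPM in controls and 61.1, 67.1 and 65.4 in Pdap1-deficient mice, apart, with a log2 fold change of 0.30 ± 0.12 that did not pass (adjusted p = 0.429). Exons of G6pdx overlap those of Ikbkg on the opposite strand, which had up to 2972 counts in a library, and the strand setting of the counting is not given in the sources used here. Taldo1 (chromosome 7, 141392199 to 141402968, plus strand), the transaldolase, had 111.1, 110.5 and 123 CPM in controls with LPS-IL-4 and 104, 99.8 and 108 in Pdap1-deficient mice, a log2 difference of −0.16 ± 0.10 (adjusted p = 0.362). With LPS-BAFF-TGFβ the controls spread from 84.3 to 136 CPM around the 88.7, 106 and 105 of the Pdap1-deficient mice.

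Compared per kilobase of exon, the order of the members in controls with LPS-IL-4 was Txnrd1 (56.6 ± 0.450 CPM per kb), Taldo1 (52.9 ± 3.15), G6pdx (22.3 ± 1.24), Gsr (13.5 ± 0.327), Nfe2l2 (12.4 ± 0.567), Keap1 (8.63 ± 0.775), Hmox1 (5.78 ± 1.76), Nqo1 (4.95 ± 1.32), Srxn1 (0.342 ± 0.238) and Me1 (0.186 ± 0.0477), as mean ± SD of 3 mice. The neighbours Hmox1 and Nqo1, and Srxn1 and Me1, differed by less than the larger of their SDs. In Pdap1-deficient cells with LPS-IL-4 the level of Gsr became 27.6 CPM per kb and that of Nqo1 19.7, both above Nfe2l2 at 15.2.

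The members were then sorted by what mouse 2 did to them. Without Pdap1-deficient mouse 2, Nqo1, Gsr and Me1 rose with LPS-IL-4 as before, with log2 fold changes of 2.09, 0.91 and 2.32 (adjusted p = 0.000494, 3.16e-05 and 0.000977). Txnrd1 (log2 fold change 0.31, adjusted p = 0.00783) and Srxn1 (2.64, adjusted p = 0.0212) then passed too, so that 5 of 10 members were called beside 9.58% of all genes. Leaving this library out lowered the log2 fold change of Hmox1 from 2.95 to 2.05 and that of Srxn1 from 3.51 to 2.64, and Hmox1 did not pass (adjusted p = 0.113). With LPS-BAFF-TGFβ, leaving out mouse 2 lowered Hmox1 from 3.43 to 1.55, Srxn1 from 3.11 to 1.46 and Gsr from 0.86 to 0.61, whereas Nqo1 went from 1.69 to 1.67 and Me1 from 2.02 to 2.04. No member passed in that fit, which called 0.229% of genes. Hmox1 and Srxn1 are thus the members whose size rests most on mouse 2, more so with LPS-BAFF-TGFβ. The size of Gsr rests on mouse 2 to a lesser degree with that stimulation. With LPS-IL-4, Hmox1 at 2.05 and Srxn1 at 2.64 kept part of their size without mouse 2, and Srxn1 passed.

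Pdap1-deficient mouse 1 had summed myeloid markers within the control range. Mouse 1 was also the only Pdap1-deficient mouse with Xist above 100 CPM. With LPS-IL-4 its levels relative to the control mean were 3.47 for Nqo1, 5.11 for Me1, 4.03 for Srxn1, 2.6 for Hmox1, 1.82 for Gsr and 1.22 for Txnrd1, each above every control. With LPS-BAFF-TGFβ the ratios of mouse 1 were 2.42 for Nqo1, 2.77 for Me1, 1.39 for Gsr and 1.18 for Txnrd1, above every control, but 0.746 for Hmox1 and 0.958 for Srxn1, inside the control range. In mouse 2 the ratios for Hmox1 were 15.1 and 26.6 under LPS-IL-4 and LPS-BAFF-TGFβ, and those for Srxn1 were 21.7 and 20.4. The part of the myeloid signal in the values of mice 2 and 3 was not tested.

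**Figure D3:**
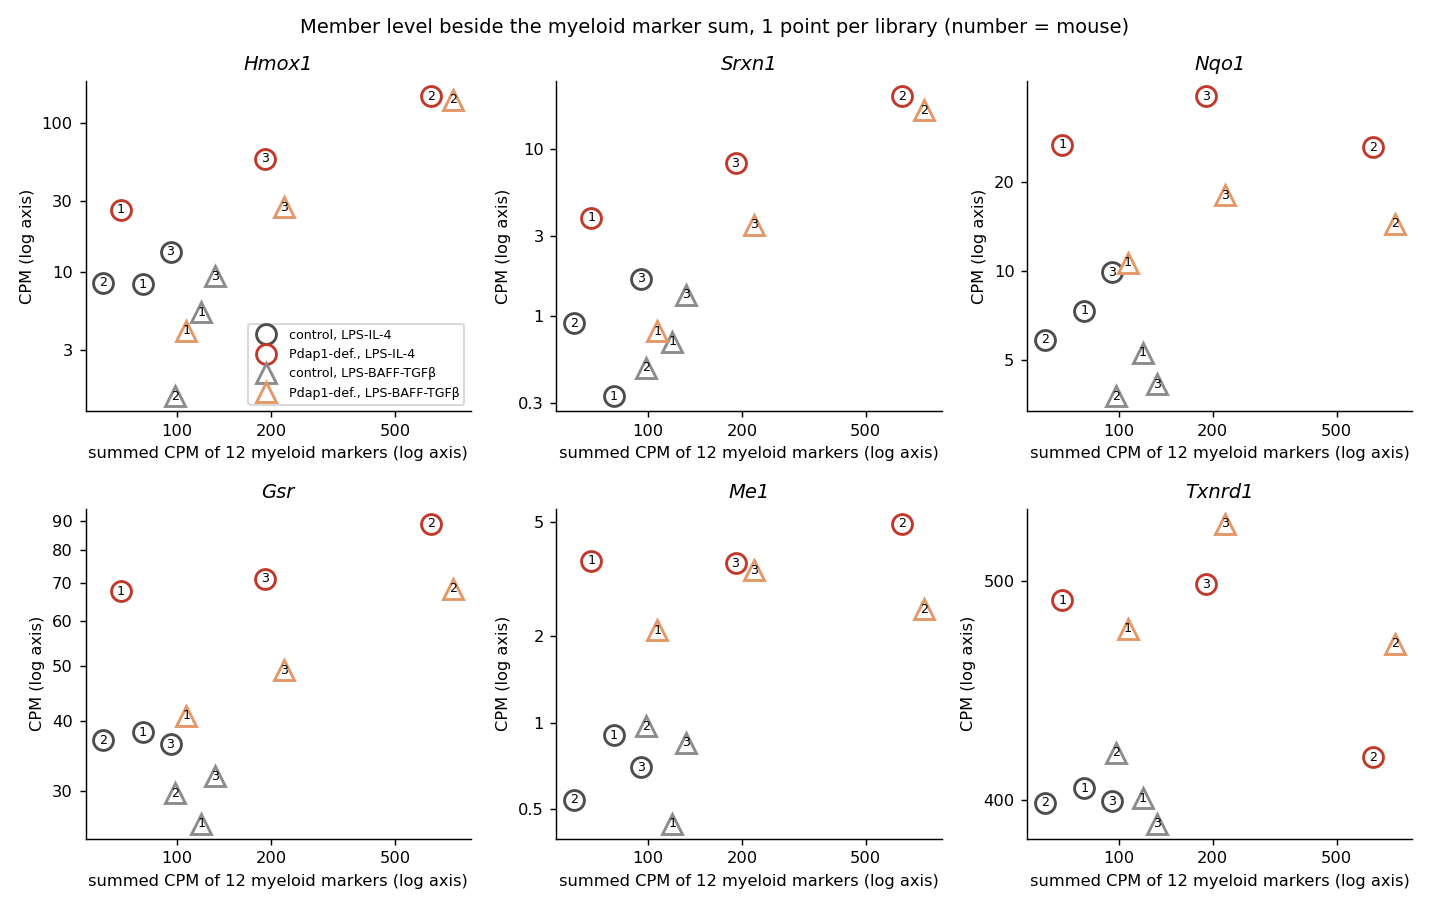
CPM of 6 members against the summed CPM of 12 myeloid markers (both axes logarithmic), 1 point per library with the mouse number, circles for LPS-IL-4 and triangles for LPS-BAFF-TGFβ. Hmox1 and Srxn1 are highest in the libraries of mouse 2, which have the highest marker sums of 654 and 770, while Nqo1 and Txnrd1 are highest in mouse 3.

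Stimulation was compared within each genotype, as LPS-BAFF-TGFβ minus LPS-IL-4. In control cells Nfe2l2 rose (log2 fold change 0.40 ± 0.11, adjusted p = 0.0325) and G6pdx fell by 0.39 on the log2 scale (adjusted p = 0.0309), 2 of the 9 members tested beside 19.3% of 14882 genes; Me1 was too scarce to be tested. The members' share was thus near that of all genes. Nfe2l2 was higher with LPS-BAFF-TGFβ in 3 of 3 control mice, by 1.30, 1.23 and 1.43 times, and G6pdx was lower in 3 of 3, at 0.696, 0.793 and 0.811. With the mouse as a replicate block, which pairs the libraries of the same number, both calls were lost (adjusted p = 0.0681 and 0.075). In that fit 0 of the members passed and 13.4% of genes did. Without the deep library of control mouse 1, Keap1 (log2 difference −0.66, adjusted p = 0.00033) and Nqo1 (−0.95, adjusted p = 0.00916) were called as well. Calls over all genes went up too, to 4858 of 15299 from 2874 of 14882 in the main fit. The calls of Nfe2l2 and G6pdx were not steady: the former was lost without any 1 of the other 5 libraries (adjusted p of 0.0511 to 0.153) and the latter without 4 of them (0.0654 to 0.135). The Keap1 ratio of stimulations was 1.36 in that mouse and 0.614 and 0.619 in the other controls.

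In Pdap1-deficient cells Keap1 fell by 0.57 (adjusted p = 0.0178) and Nqo1 fell by 1.08 (adjusted p = 0.0134) on the log2 scale with LPS-BAFF-TGFβ, 2 of 10 members beside 11.5% of 14617 genes. Ratios of LPS-BAFF-TGFβ to LPS-IL-4 in mice 1, 2 and 3 were 0.646, 0.657 and 0.719 for Keap1 and 0.399, 0.553 and 0.463 for Nqo1. With the mouse as a replicate block 4 members passed, Gsr (log2 difference −0.54, adjusted p = 0.000199) and Srxn1 (−0.84, adjusted p = 0.0326) joining them, beside 26.4% of genes. Gsr was lower in 3 of 3 mice at 0.603, 0.767 and 0.689, and Srxn1 at 0.207, 0.819 and 0.426. In controls the Gsr ratios were 0.690, 0.806 and 0.877, and the log2 difference of −0.34 ± 0.11 did not pass (adjusted p = 0.0709). Without the LPS-BAFF-TGFβ library of Pdap1-deficient mouse 1 neither Keap1 (adjusted p = 0.105) nor Nqo1 (0.0708) passed. Keap1 also missed without that of mouse 3 (0.0749), Nqo1 without the LPS-IL-4 library of mouse 3 (0.0574), and Gsr passed without the LPS-BAFF-TGFβ library of mouse 2 (0.0201). Over all 12 alternatives Keap1 lost its call in 3, with adjusted p up to 0.160, and Nqo1 in 2, up to 0.0708.

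**Figure D4:**
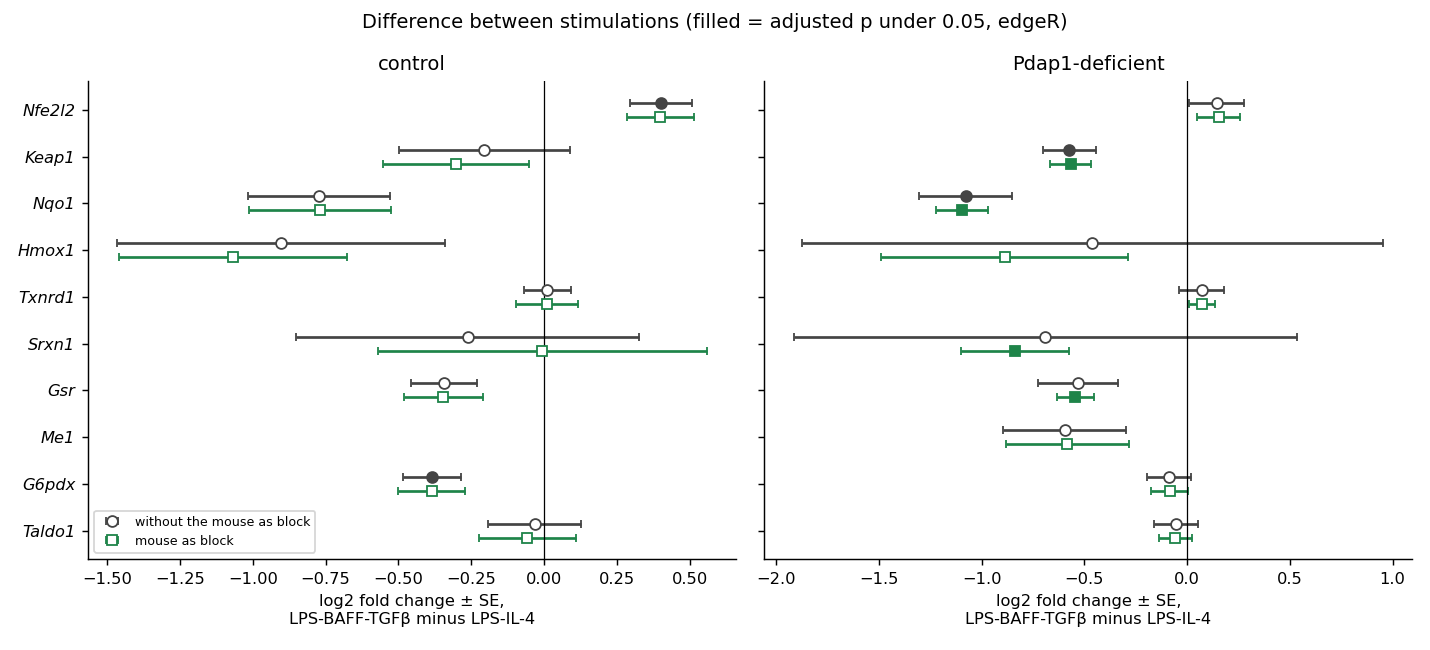
Log2 fold change of each gene between stimulations, LPS-BAFF-TGFβ minus LPS-IL-4, with its SE, in control (left) and Pdap1-deficient cells (right), with and without the mouse as a block; filled points passed an adjusted p of 0.05. Nqo1 and Keap1 are lower with LPS-BAFF-TGFβ in Pdap1-deficient cells in both fits, and Nfe2l2 is above 0 in controls.

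Whether the effect of Pdap1 deficiency differed between stimulations was tested directly. By edgeR none of the 10 members passed, and 0.0% of 15794 genes did, although 755 genes had an unadjusted p under 0.05; DESeq2 called 6 genes, none of them a member. Among the members the smallest unadjusted p was that of G6pdx (0.0578), whose genotype effect was 0.30 larger on the log2 scale with LPS-BAFF-TGFβ, SE 0.14. For Nqo1 the difference between effects was −0.31 ± 0.35, so that no difference between its rises in the 2 cultures was detectable.

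Other genes of the pathway were followed as 75 genes in 7 lists. With LPS-IL-4, 59 were tested, 9 rose and 1 fell in Pdap1-deficient cells, beside 2.79% of all genes that rose and 4.92% that changed either way, and their median log2 fold change was 0.16 against 0.02 over all genes. Among 14 regulators, Bach1, which represses the same elements, rose from 17.9 to 32.5 CPM (log2 fold change 0.85 ± 0.12, adjusted p = 0.00576). Nfe2l1, the relative of Nrf2 that drives proteasome genes, rose from 109.6 to 170.4 CPM (log2 fold change 0.63 ± 0.09, adjusted p = 0.00649). Sqstm1, the autophagy receptor p62 that can sequester Keap1, rose from 78.5 to 123 CPM (0.63 ± 0.12, adjusted p = 0.0208). The other 11 regulators, with Cul3 and the small Maf genes, did not pass.

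Of 11 tested glutathione genes 2 rose. These were Gclm, the modifier subunit of glutamate-cysteine ligase (from 50.8 to 79.7 CPM, log2 fold change 0.64 ± 0.10, adjusted p = 0.00875), and Mgst2, a microsomal glutathione transferase (1.05 ± 0.20, adjusted p = 0.0208). Of 7 heme and iron genes 2 rose, Slc48a1, a heme transporter (0.79 ± 0.16, adjusted p = 0.0228), and Ftl1, the ferritin light chain (0.80 ± 0.20, adjusted p = 0.0473), whose processed copies in the genome make its count uncertain. The detoxification list had 1 riser of 8, Osgin1, an inhibitor of growth under oxidative stress (1.83 ± 0.44, adjusted p = 0.0422), which was scarce at 0.753 and 2.67 CPM. Catalase, Cat, which degrades hydrogen peroxide, rose from 67.6 to 91.7 CPM (0.43 ± 0.11, adjusted p = 0.0495). In the thioredoxin list 1 of 9 fell, the peroxiredoxin Prdx6, from 128 to 88.6 CPM (−0.54 ± 0.11, adjusted p = 0.0263). None of the 7 other NADPH genes passed.

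Without Pdap1-deficient mouse 2, 9 of these genes rose and 2 fell, beside 9.58% of all genes that changed. Ftl1 and Osgin1 then missed the threshold (adjusted p = 0.0522 and 0.0711), and Bach1, Nfe2l1, Sqstm1, Gclm, Mgst2, Slc48a1, Cat and Prdx6 did not. The number that rose was 0 without control mouse 1 or control mouse 2, 1 without control mouse 3 and 2 without Pdap1-deficient mouse 3. Over all genes the calls fell too, from 741 in the main fit to 91, 69, 79 and 163 in these fits. Nqo1, Gsr and Me1 kept their calls in them. With a term for Xist above or below 100 CPM 3 rose, Bach1, Nfe2l1 and Gclm, and the other 7 missed the threshold (adjusted p of 0.0742 to 0.152). That fit called 173 genes over all. With all 12 libraries in 1 fit 5 rose and 1 fell, beside 588 genes called over all. With LPS-BAFF-TGFβ, edgeR called 0 of 57 tested, beside 0.462% of all genes. Of the 57, 12 had an unadjusted p under 0.05, beside 1486 of all 14079 genes. DESeq2 called 2 higher and 1 lower of the 72 in its fit, beside 0.983% of all genes. With that stimulation Nfe2l1 had 125, 92.6 and 79.9 CPM in controls and 168, 171 and 155 in Pdap1-deficient mice, and Bach1 13.4, 15.7 and 11.8 against 17.7, 23.1 and 21.6, both without overlap. Neither passed (adjusted p = 0.138 and 0.309), but Nfe2l1 did without the deep control library (log2 fold change 0.93, adjusted p = 0.000551), by DESeq2 (0.0124), without a filter (0.00563) and with all 12 libraries in 1 fit (0.0185). In every other alternative Nfe2l1 missed, with adjusted p from 0.104 with the replicate block to 0.590 without Pdap1-deficient mouse 2. Slc7a11, the cystine transporter, was singled out after its values were seen, since its mice stood in the order of Hmox1. It had 4.78, 1.98 and 11.1 CPM in controls with LPS-IL-4 and 34.7, 294 and 77.0 in Pdap1-deficient mice 1, 2 and 3, and did not pass (adjusted p = 0.128).

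**Figure D5:**
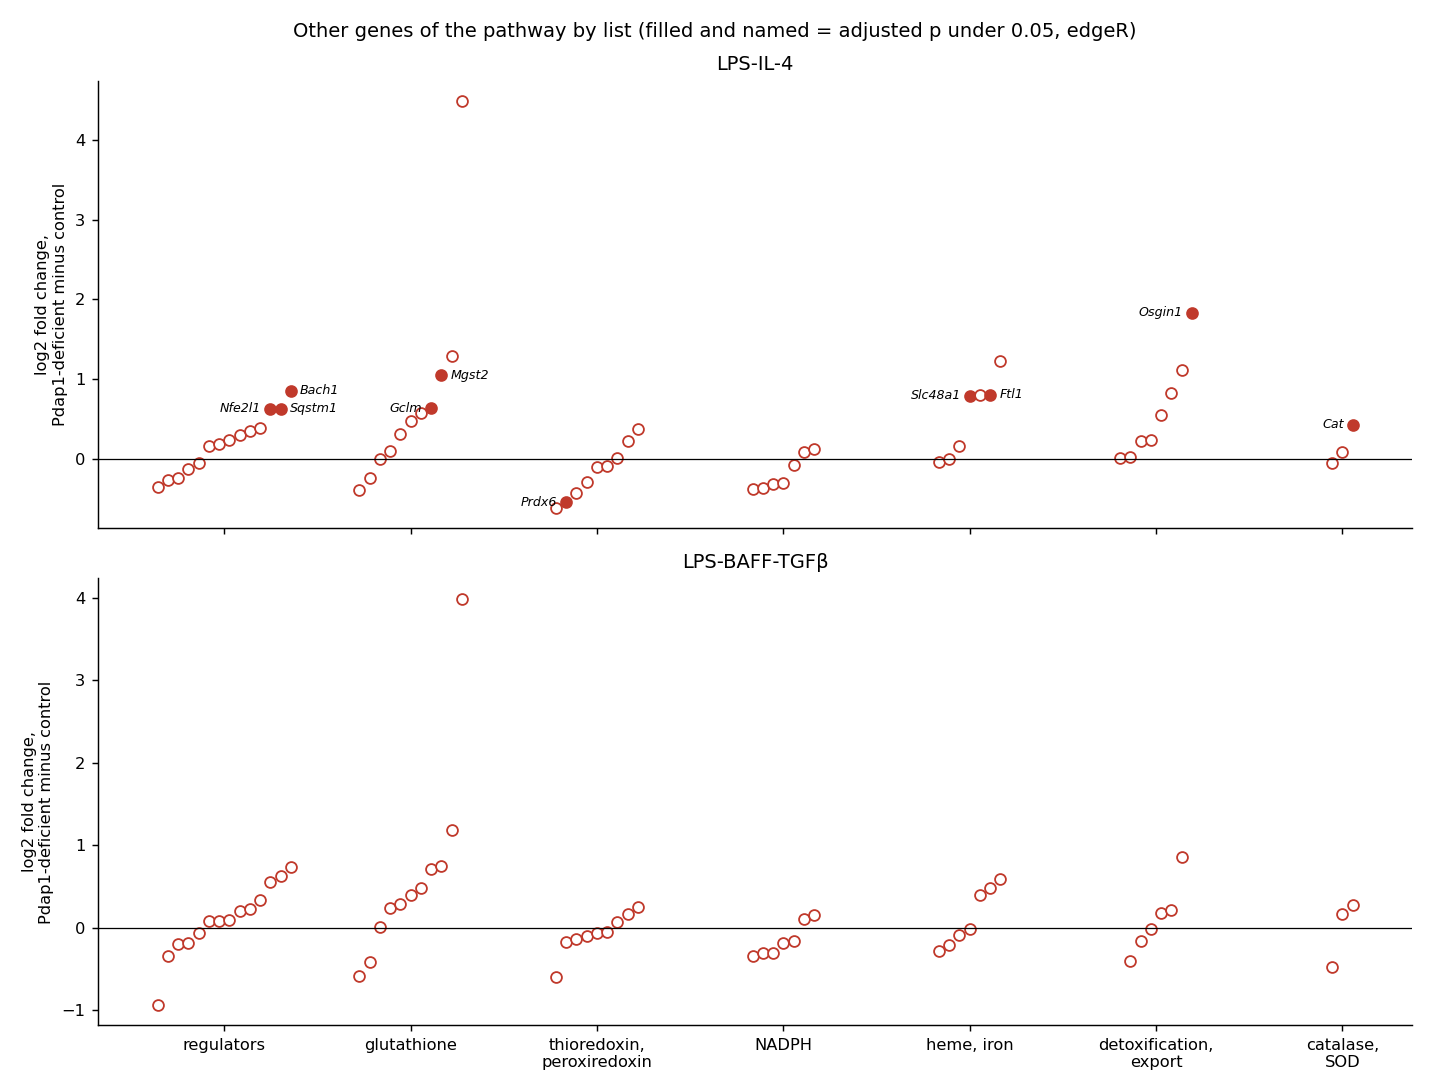
Log2 fold change between genotypes, Pdap1-deficient minus control, of the tested genes of 7 pathway lists under LPS-IL-4 (top, 59 genes) and LPS-BAFF-TGFβ (bottom, 57 genes), ordered by value within each list; filled and named points passed an adjusted p of 0.05. With LPS-IL-4, 9 genes are filled above 0 and Prdx6 below it, and no point is filled with LPS-BAFF-TGFβ.

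Between stimulations, 10 of these genes rose and 8 fell with LPS-BAFF-TGFβ in control cells, of 57 tested and beside 19.3% of all genes that changed. The 3 with the smallest adjusted p were Gstm1, a glutathione transferase that fell by 1.76 on the log2 scale (adjusted p = 0.000279), Idh1, the cytosolic NADP isocitrate dehydrogenase, which rose by 1.43 (adjusted p = 0.00134), and Mafg, a small Maf partner of Nrf2, which fell by 0.72 (adjusted p = 0.00343). Without the deep library 13 rose and 16 fell, and without the LPS-IL-4 library of control mouse 1, 2 or 3 the counts were 3 and 5, 4 and 5, and 4 and 5. Over all genes those fits called 4858, 1608, 1714 and 1745, against 2874 in the main fit. In Pdap1-deficient cells 4 rose and 6 fell of 60 tested, beside 11.5% of all genes, or 16 and 17 with the mouse as a replicate block, beside 26.4% of all genes. There 2 rose and 1 fell without either the LPS-IL-4 library of mouse 3 or the LPS-BAFF-TGFβ library of mouse 1, and 2 rose and 3 fell without the LPS-BAFF-TGFβ library of mouse 3. Over all genes those fits called 1003, 908 and 959, against 1675 in the main fit. In the main fit Idh1 rose by 1.39 in Pdap1-deficient cells too (adjusted p = 0.000144). Cul3, the scaffold of the ligase that Keap1 serves, rose by 0.82 (adjusted p = 0.00214), and Ephx1, the microsomal epoxide hydrolase, fell by 1.45 (adjusted p = 0.0057). Bach1 fell by 0.64 with LPS-BAFF-TGFβ in Pdap1-deficient cells (adjusted p = 0.0222).

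The genes most like Nfe2l2, Nqo1 and Hmox1 were named by Pearson's r of log2 CPM over the 12 libraries among 15793 other genes; the 12 libraries come from 6 mice, and the values are descriptions. For Nqo1 they were Tnks1bp1, Slc3a2, Nupr1, Pfkp and Fut1, with r of 0.945 to 0.955, and its nearest member was Gsr (r = 0.909). For Hmox1 they were Acod1, Lilr4b, Sirpa, Cd9 and Cln8, with r of 0.952 to 0.973, of which Acod1, Lilr4b and Sirpa are known from myeloid cells, and its nearest member was Srxn1 (r = 0.948). For Nfe2l2 they were Arhgap6, A130071D04Rik, Acadl, Primpol and Gm9085, with r of 0.887 to 0.908. The r of Nfe2l2 with the other members ran from −0.52 with Keap1 to 0.37 with Srxn1, and that with Nqo1 was 0.09.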

How the data were processed

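The authors prepared ribosomal RNA-depleted libraries, trimmed reads with Trim Galore 0.6.1, mapped them to GRCm38 with STAR 2.6 and deposited HTSeq 0.9.1 read counts per gene, without pooling mice; the annotation release and strand setting are not given in the sources used here. A sample label names the CH12 line, whereas titles and methods give primary B cells. The deposited normalized table was not used. Counts were tested with edgeR 4.0.16 (R 4.3.3; TMM scaling, filterByExpr, robust quasi-likelihood F test, Benjamini-Hochberg adjusted p under 0.05 over all tested genes), fitting only the 2 groups compared, or 4 for the interaction. SEs were taken from the F statistic. Fits were tested on simulated data. No 2 libraries were copies. Alternatives were DESeq2 1.42.0 (Wald test, and its size factors in edgeR), no filter and at least 10 counts in every library. Others were a replicate block, all 12 libraries in 1 fit and leaving out each library. A term for Xist, a transcript of female cells, above or below 100 CPM was added after the data were seen. Xist was 718 to 1261 CPM in control mice 1 and 3 and Pdap1-deficient mouse 1, and at most 8.47 in the other mice. The term was thus not balanced between genotypes.

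Replicate numbers were taken to mark the same animal across stimulations, which the sample titles do not state. Deviations of same-numbered libraries correlated at 0.579, 0.622 and 0.293 in Pdap1-deficient mice and −0.181, 0.341 and −0.0228 in controls. Control number 3 with LPS-IL-4 correlated at 0.366 with control number 1 with LPS-BAFF-TGFβ, so these values do not settle the pairing in controls. Between genotypes the replicate numbers are only numbers. Members and lists were chosen with earlier results of these data known. Named were all members, Pdap1, marker genes, pathway genes past the threshold between genotypes, the 3 with the smallest adjusted p between stimulations, and the 5 genes most like 3 members (log2 CPM with a prior count of 2). The total per library ran from 4579793 to 69500640 counts. The driver of the Cre allele is not reported here, and 1 B cell marker was left out.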

Additional observations from a re-analysis of the deposited data

How the results depend on the processing

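Nqo1, Gsr and Me1 with LPS-IL-4 kept direction and call in all alternatives that could test them (13, 13 and 12). Of 590 alternative values of 49 log2 fold changes, 520 kept direction and side of the threshold, 26 turned sign, 20 newly passed and 24 no longer passed; the turned values belonged to uncalled differences. Members called with LPS-IL-4, 3, became 5 with DESeq2, and 3 to 5 when 1 library was left out. With LPS-BAFF-TGFβ, 1 became 2 with DESeq2, 3 without a filter, 3 with all 12 libraries in 1 fit, 0 with the Xist term, and 0 to 1 when 1 library was left out. Between stimulations, 2 became 1 with DESeq2 in controls and 0 to 4 when 1 library was left out, and 0 to 3 in Pdap1-deficient cells. Over all genes the calls moved too. With LPS-IL-4, 741 became 1217 with DESeq2 and 69 to 1759 when 1 library was left out. With LPS-BAFF-TGFβ, 65 became 172 with DESeq2, 257 without a filter, 133 with all 12 libraries and 42 with the Xist term. The range there was 19 to 116 when 1 library was left out. In controls 2874 became 2782 with DESeq2 and 1608 to 4858 when 1 library was left out. In Pdap1-deficient cells 1675 became 908 to 2235. Fewer samples are tested when a library is left out; for the other changes the cause was not tested.

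With the replicate block, 0 members were called between genotypes with LPS-BAFF-TGFβ, 0 between stimulations in controls and 4 in Pdap1-deficient cells. Over all genes those fits called 48, 1989 and 3854, against 65, 2874 and 1675 in the main fits. Between genotypes the number marks no shared animal: deviations of same-numbered mice correlated at 0.00828, −0.203 and −0.164 with LPS-IL-4 and 0.103, −0.205 and 0.0389 with LPS-BAFF-TGFβ. The block fit between genotypes with LPS-IL-4 called 4 members, beside 641 of 15074 genes. The block turned the Hmox1 interaction to −0.087.

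The other log2 values that turned sign were G6pdx between genotypes with LPS-IL-4 (0.046 with the Xist term), Nfe2l2 with LPS-BAFF-TGFβ (−0.023 without a filter), and Txnrd1 between stimulations in controls (−0.012 with DESeq2, −0.0099 without a filter). When 1 library was left out, the ranges between genotypes were −0.093 to 0.061 for G6pdx with LPS-IL-4, and −0.018 to 0.12 for Nfe2l2, −0.63 to 0.024 for Keap1 and −0.33 to 0.0035 for Taldo1 with LPS-BAFF-TGFβ. The interaction ranged from −0.58 to 0.12 for Keap1, −0.49 to 0.62 for Hmox1 and −0.24 to 0.17 for Taldo1. Between stimulations in controls the ranges were −0.66 to 0.0038 for Keap1, −0.023 to 0.030 for Txnrd1, −0.67 to 0.40 for Srxn1 and −0.19 to 0.13 for Taldo1. In Pdap1-deficient cells they were −2.30 to 0.45 for Hmox1, −0.0050 to 0.12 for Txnrd1, −2.29 to 0.19 for Srxn1 and −0.10 to 0.038 for Taldo1. Reads were few for Srxn1 and Me1, 4 to 19 and 6 to 11 in the LPS-IL-4 controls.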
